A study of Mus musculus with 3 samples.

Results

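Interferon response and antigen presentation genes were followed in the mouse cell line MC3T3-E1, preosteoblasts that came from the calvaria (skull cap) of the C57BL/6 strain. The set held 36 genes, and each was represented by the probe set that carried its symbol alone and had the highest mean over the arrays. Of the 36, 33 had such a probe set, out of 18193 genes in all, and Isg15, Ifi44 and Psme2 did not. A gene was called measured when its mean over the arrays lay above a floor of 3.54 on the log2 scale, the 50th percentile of all probe sets, which 23 members and 11350 genes did. The members were not chosen by their values in these arrays, although results of the same arrays were known when the set was drawn up.

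All cells were grown for 3 days at 37 °C in MEM α with 10% fetal bovine serum. The first of the 3 media was osteogenic medium to which 0.6% of the solvent dimethyl sulfoxide (DMSO) had been added. Another was osteogenic medium without DMSO, which held 150 µM ascorbic acid 2-phosphate, a stable vitamin C, and 10 mM beta-glycerophosphate, a phosphate donor. The reference was normal medium with neither supplement. Per the labels, alizarin red S, a stain for calcium deposits, was stronger with DMSO. Each medium was represented by 1 culture of 1 cell line on 1 array, so there is no replicate, no test and no p-value, and every difference below is between 2 arrays. How far 2 cultures in the same medium differ is unknown, and so few arrays limit the precision of all values.

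Interferons are secreted proteins that cells release on infection. Type I interferons bind the receptor of Ifnar1 and Ifnar2, and interferon gamma that of Ifngr1 and Ifngr2. Janus kinases then activate STAT factors, which enter the nucleus alone or with Irf9 and switch on antiviral genes and the genes of antigen presentation. In antigen presentation, the immunoproteasome cuts proteins into peptides, the Tap transporter carries them into the endoplasmic reticulum, and tapasin helps to load them on MHC class I heavy chains, which reach the surface bound to B2m. Most nucleated cells make a basal amount of this machinery without infection.

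STAT and interferon regulatory factors bind short DNA elements near the starts of these genes. Promoters of some members are shown for reference, picked among those that carry such an element. The element of interferon regulatory factors (ISRE) was searched as GAAA, any 2 bases and GAAA again, and the STAT element (GAS) as TTCNNNGAA, on both strands of the 250 bases before and 50 bases after each start in RefSeq's GRCm38.p6 annotation. Of the 36 members, 31 had such a window. Below, the last 150 bases before the start are written 5′ to 3′ on the strand of the gene, with a matched element in capitals.
Gbp2: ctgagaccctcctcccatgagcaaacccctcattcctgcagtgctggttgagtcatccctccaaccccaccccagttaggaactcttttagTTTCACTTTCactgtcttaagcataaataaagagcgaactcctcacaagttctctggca
B2m: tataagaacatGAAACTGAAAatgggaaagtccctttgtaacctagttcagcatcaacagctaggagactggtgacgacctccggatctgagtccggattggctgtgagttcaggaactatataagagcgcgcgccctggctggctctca
Bst2: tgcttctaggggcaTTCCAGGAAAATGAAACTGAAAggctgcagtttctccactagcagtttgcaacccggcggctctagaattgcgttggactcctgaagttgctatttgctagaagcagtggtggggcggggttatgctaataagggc
Ifit1: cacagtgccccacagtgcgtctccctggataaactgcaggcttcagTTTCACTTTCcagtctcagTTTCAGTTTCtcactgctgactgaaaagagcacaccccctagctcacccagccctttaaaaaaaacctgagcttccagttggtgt
Irf1: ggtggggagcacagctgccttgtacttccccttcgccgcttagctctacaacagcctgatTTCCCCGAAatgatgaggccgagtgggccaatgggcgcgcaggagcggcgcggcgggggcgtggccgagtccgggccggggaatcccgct
Psmb8: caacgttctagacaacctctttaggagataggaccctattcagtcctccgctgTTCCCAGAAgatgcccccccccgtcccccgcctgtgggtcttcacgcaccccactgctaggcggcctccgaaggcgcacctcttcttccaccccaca
These lie at chr3:142620513-142620662 (+) for Gbp2, chr2:122147537-122147686 (+) for B2m and chr8:71537473-71537622 (-) for Bst2. Those of Ifit1, Irf1 and Psmb8 lie at chr19:34640739-34640888 (+), chr11:53769864-53770013 (+) and chr17:34198045-34198194 (+). The capitals are ISRE letters in Gbp2, B2m and Ifit1 and GAS letters in Irf1 and Psmb8. In Bst2 they mark a GAS and 2 ISRE matches that overlap.

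An ISRE match was present in 13 of the 31 members with a window (41.9%), against 3.99% of all 27025 genes with windows. A GAS match was present in 8 (25.8%), against 9.55% of all genes. Of the 13 with an ISRE match, 8 were measured. The matches are letters in a window and say nothing on whether a factor was bound in these cells. Both Gbp2, which had the largest difference from normal medium among the members in either osteogenic medium, and Ifit1, which stayed under the floor on all arrays, held ISRE letters. Tapbp, H2-D1 and H2-K1 held no match to either element. In osteogenic medium with DMSO they were 1.77-, 1.66- and 1.60-fold lower than in normal medium.

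Psmb9, Tap1, Psmb8 and Tap2 are neighbours within the MHC region of chromosome 17, where 7 of the 36 members lie. Psmb9 and Tap1 are read in opposite directions from the same stretch, so 1 sequence stands before both starts. It is shown because their RNA differed in opposite directions between osteogenic and normal medium. These 225 bases, at chr17:34187331-34187555, are written on the strand of Tap1 and held no match to either motif.
between Psmb9 and Tap1: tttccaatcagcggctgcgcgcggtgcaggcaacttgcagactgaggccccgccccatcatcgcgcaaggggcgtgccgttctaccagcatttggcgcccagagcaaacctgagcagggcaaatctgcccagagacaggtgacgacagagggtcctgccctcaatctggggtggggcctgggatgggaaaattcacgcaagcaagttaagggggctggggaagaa

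The cells carried the markers of their label. All 7 osteoblast lineage markers with a probe set were above the floor on every array, and Col1a2 stood at 13.34, 13.34 and 13.30 in osteogenic medium with DMSO, osteogenic medium and normal medium. Of 15 probed markers of macrophages and other blood cells, 4, 4 and 5 were above the floor in the same order. Ptprc (1.38) and Itgam (1.56), which define blood cells and myeloid cells, had the same value under the floor on all 3 arrays. As a sign of RNA integrity, the 3' minus 5' log2 signal of Actb was 0.18, 0.20 and 0.27. Medians of 3.54, 3.57 and 3.54 show arrays scaled alike at deposit, so a change in total RNA per cell would not be seen. In such bulk RNA, fewer cells of a type and less RNA per cell cannot be told apart.

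Between osteogenic and normal medium, most measured members were lower in osteogenic medium. Of 23, 18 were lower, 4 were equal and 1, Tap1, was higher, while of all 11350 measured genes 38.5% were lower and 36.3% higher. The members' median log2 difference was -0.27, against 0.00 over all measured genes. Members lower by at least 0.32 on the log2 scale, the lowest of 3 counting lines, numbered 9, against 5.91% of all measured genes, and 2 were lower by at least 1.5-fold, Gbp2 and Psmb9, against 1.59%. None was lower by at least 2-fold, against 0.185%, and none was higher by at least 0.32, against 6.03%. Over all 33 probed members, with no floor, 23 were lower, 7 equal and 3 higher, with a median of -0.26. Of all 18193 probed genes, also with no floor, 5670 were lower, 7309 equal and 5214 higher.

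Within osteogenic medium, most measured members were lower with DMSO than without. Of the 23, 20 were lower, 1 was equal and 2, Ifit2 and Oas1a, were higher, while of all measured genes 30.2% were lower and 40.5% higher. The median was -0.28, against 0.00 over all measured genes. Again 9 members were lower by at least 0.32, against 5.41% of all measured genes, and none was higher by that much, against 2.24%. None was lower by at least 1.5-fold, where 2.11% of all genes were, nor by 2-fold, where 0.546% were, and the lowest was Bst2 at -0.56. Over all 33 probed members, with no floor, the counts were 24 lower, 5 equal and 4 higher, with a median of -0.13. Over all 18193 probed genes they were 4288 lower, 8053 equal and 5852 higher. The array of osteogenic medium stands in both comparisons, so its own error enters each with opposite sign.

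**Figure D1:**
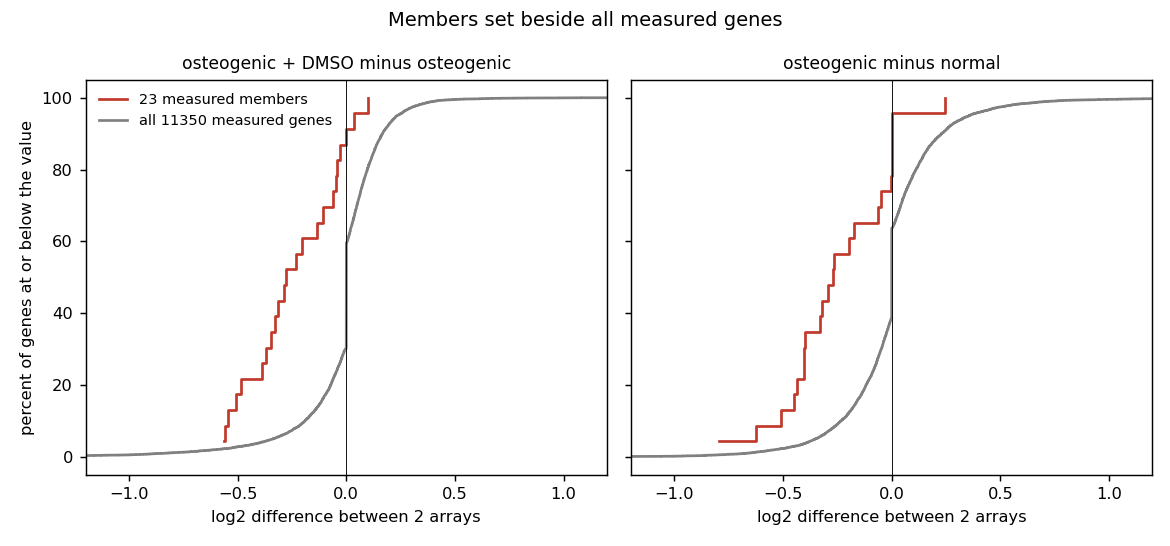
Cumulative share, in percent, of the 23 measured members (red) and of all 11350 measured genes (grey) against the log2 difference between 2 arrays, for osteogenic medium with DMSO minus osteogenic medium (left) and osteogenic minus normal medium (right). The members' curve lies left of that of all genes, with medians of -0.28 and -0.27, and the step at 0 in the grey curve is made by genes with exactly equal values.

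Osteogenic medium with DMSO set against normal medium gives the sum of both differences, which are called steps below. There, 20 of the 23 members were lower, 1 was equal and 2, Ifit2 and Tap1, were higher, against 35.6% lower and 40.7% higher among all measured genes. By at least 0.32, 18 were lower, against 9.91%, and none was higher, against 8.12%. By at least 1.5-fold 8 were lower, against 4.19%, and the median was -0.55. In 17 of the 23 the values followed the order of the media, lowest in osteogenic medium with DMSO and highest in normal medium. Some did so by little, such as Bst2 (-0.0033 between osteogenic and normal medium) and Psmb9 (-0.044 with DMSO). The share of all measured genes in this order was not counted, so whether 17 of 23 is unusual is not known. The plot of values by medium shows this order and the exceptions to it. In Irf9 and Isg20 osteogenic and normal medium were equal, Mx2 was equal on all arrays, and Ifit2, Oas1a and Tap1 took another order.

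**Figure D2:**
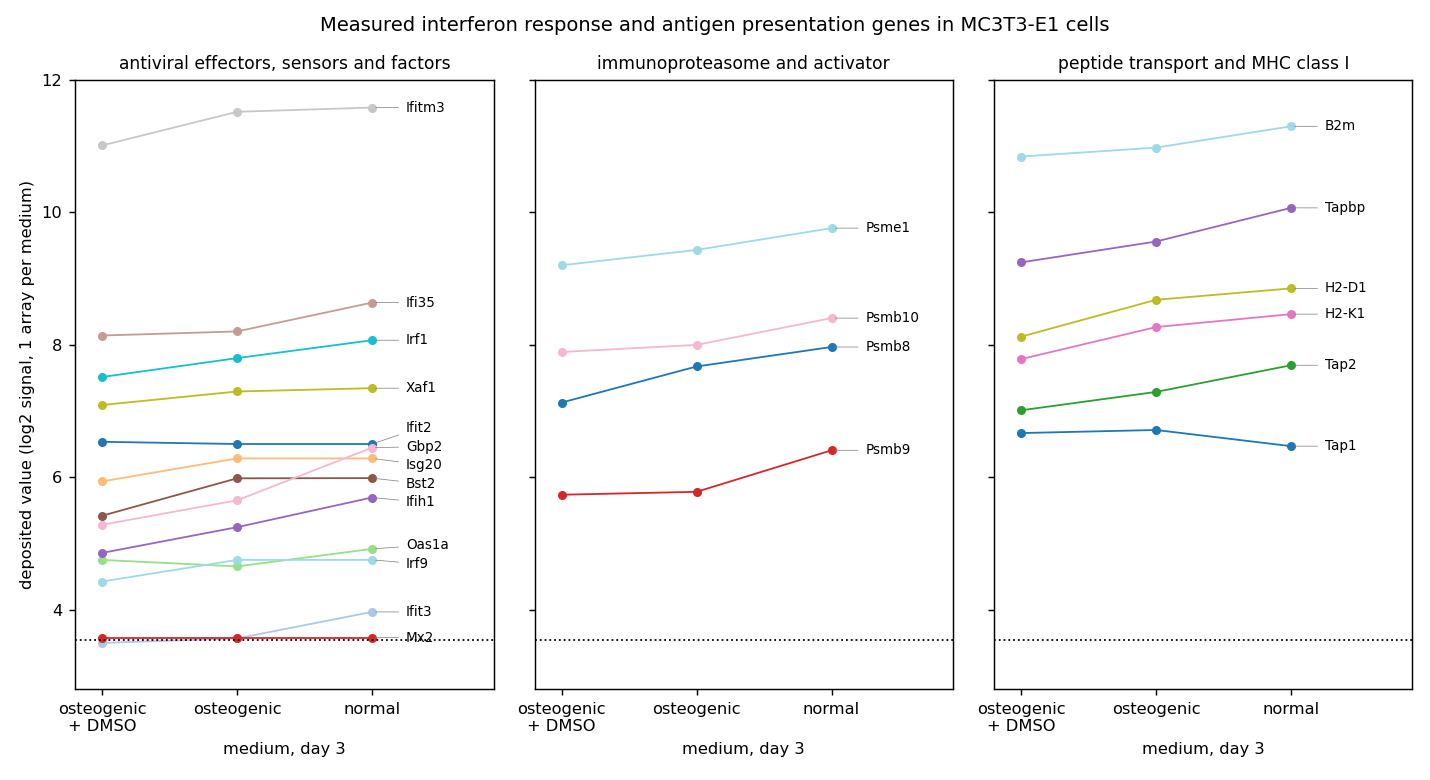
Deposited log2 signal (vertical axis) of the 23 measured members in osteogenic medium with DMSO, osteogenic medium and normal medium, with 1 array per medium and a line for each gene. The dotted line is the floor of 3.54. Most lines climb to the right, Gbp2 among them at 5.28, 5.65 and 6.45, while Ifit2 and Mx2 are level.

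Among the sensors and antiviral effectors, Gbp2 differed most from normal medium in either osteogenic medium, while Bst2, Ifitm3 and Ifih1 differed more with DMSO. It encodes a guanylate-binding protein that attacks the vacuoles of intracellular pathogens. Its value was 5.28 in osteogenic medium with DMSO, 5.65 in osteogenic medium and 6.45 in normal medium. That made it 1.73-fold lower in osteogenic than in normal medium, 1.29-fold lower with DMSO than without, and 2.24-fold lower in osteogenic medium with DMSO than in normal medium, the 1 member past 2-fold in any comparison (1.35% of all measured genes were lower by that much). A second probe set gave log2 differences of -0.83, -0.52 and -1.34, each larger in size than the -0.79, -0.37 and -1.16 of the first, which is of a kind that may match several sequences.

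Ifih1, a cytosolic sensor of long double-stranded RNA, stood at 4.86 in osteogenic medium with DMSO, 5.25 in osteogenic medium and 5.69 in normal medium. It was 1.36-fold lower in osteogenic than in normal medium, 1.31-fold lower with DMSO than without, and 1.79-fold lower over both steps. The companion sensor Dhx58 was under the floor on all arrays.

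Some effectors differed mainly in 1 of the steps. Bst2, or tetherin, which holds budding viruses at the cell surface, had 5.42 with DMSO, 5.98 in osteogenic medium and 5.99 in normal medium. Ifitm3, a membrane protein that blocks the fusion of enveloped viruses and the brightest of the antiviral members, had 11.01, 11.52 and 11.58 in the same order. Both were thus at nearly the same level in osteogenic and normal medium, with log2 differences of -0.0033 and -0.065, and lower with DMSO, by -0.56 and -0.51. Isg20, an exonuclease that degrades RNA, was equal in osteogenic and normal medium (6.28) and lower with DMSO (5.94). Exactly equal values in osteogenic and normal medium were common, at 25.2% of all measured genes.

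Ifi35 followed the other course. This leucine zipper protein, which binds the interferon-induced factor Nmi, stood at 8.14 with DMSO, 8.20 in osteogenic medium and 8.64 in normal medium. The log2 difference was -0.44 between osteogenic and normal medium and -0.062 with DMSO, and its 3 probe sets ranged from -0.44 to -0.16 and from -0.064 to -0.036. Ifit3, which belongs to a family of proteins that bind viral RNA, was dim, at 3.50, 3.57 and 3.97 in osteogenic medium with DMSO, osteogenic and normal medium. Its value with DMSO lay under the floor, so the difference from normal medium is a bound, at least 1.34-fold lower.

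The remaining measured effectors were Xaf1, Oas1a, Ifit2 and Mx2. Xaf1, an antagonist of the apoptosis inhibitor XIAP, was at 7.09, 7.29 and 7.34, again from osteogenic medium with DMSO to normal medium. Oas1a, which senses double-stranded RNA and activates RNase L, was at 4.75, 4.65 and 4.92, higher with DMSO by 0.098 and lower in osteogenic than in normal medium by -0.26. Ifit2 was level at 6.54, 6.50 and 6.50, and Mx2 was at 3.58 on each array, just above the floor.

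Many of the genes that mark a strong interferon response lay under the floor. Measured were 23 of the 33 probed members, against 11350 of all 18193 probed genes. Members thus lay under the floor no more often than genes in general. The 10 members with means under it were Ifit1, Oasl1, Oasl2, Mx1, Rsad2, Dhx58, Gbp3, Usp18, Irf7 and Stat2. None of them exceeded the floor on any array. Irf7, the factor that amplifies type I interferon production, stood at 2.34 on all 3, and Rsad2, the antiviral enzyme viperin, at 3.41. Oasl2, an oligoadenylate synthetase-like protein, had unfloored values of 1.70 with DMSO, 2.07 in osteogenic medium and 2.67 in normal medium. No fold is given for values under the floor. Just above it lay Mx2 and Ifit3, with means of 3.58 and 3.68, and just below Rsad2 and Stat2, with 3.41 and 3.32.

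Of the transcription factors, Irf1 and Irf9 were measured. Irf1, which binds the ISRE and drives immunoproteasome and MHC class I genes, was at 7.51 with DMSO, 7.80 in osteogenic medium and 8.07 in normal medium. Its differences were about equal in both steps, -0.29 with DMSO and -0.27 between osteogenic and normal medium. Irf9, the DNA-binding partner of the STAT dimer formed after type I interferon, was at 4.43 with DMSO and at 4.75 in the other media. Of all measured genes, 25.2% were likewise exactly equal in those media.

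All 4 measured genes of the immunoproteasome and its activator were lower in both steps, some by little. Of all measured genes, 38.5% were lower between osteogenic and normal medium and 30.2% with DMSO. The share lower in both was not counted. The immunoproteasome is a form of the proteasome in which 3 catalytic subunits are exchanged for inducible ones. Psmb8 stood at 7.13 in osteogenic medium with DMSO, 7.67 in osteogenic medium and 7.97 in normal medium. Psmb9 stood at 5.74, 5.78 and 6.41, and Psmb10 at 7.89, 8.0 and 8.40, in the same order. Psmb9 and Psmb10 differed mainly between osteogenic and normal medium, by -0.63 and -0.40 on the log2 scale. With DMSO they differed by -0.044 and -0.107, within the SD of 0.112 between probe sets of 1 gene. Psmb8 had the larger difference with DMSO, -0.54, against -0.29 between osteogenic and normal medium. Psme1, a subunit of the activator that opens the proteasome, was at 9.20, 9.43 and 9.76 from osteogenic medium with DMSO to normal medium, 1.47-fold lower over both steps.

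The constitutive subunits that these replace did not share the direction. Psmb5, the counterpart of Psmb8, stood at 9.81 with DMSO, 9.69 in osteogenic medium and 9.65 in normal medium. Psmb6, the counterpart of Psmb9, stood at 10.37, 10.22 and 10.11, and Psmb7, the counterpart of Psmb10, at 10.04, 10.0 and 9.97. Each was slightly higher in both steps, by 0.034 to 0.16 on the log2 scale. The SD between probe sets of 1 gene was 0.11 with DMSO and 0.14 between osteogenic and normal medium, so most of these rises are within it. From osteogenic medium with DMSO to normal medium, the difference of the inducible subunit exceeded that of its counterpart by -0.996 for Psmb8, -0.94 for Psmb9 and -0.58 for Psmb10. With DMSO within osteogenic medium it did so by -0.66, -0.20 and -0.14, and between osteogenic and normal medium by -0.33, -0.74 and -0.44. For scale, the SD of 1 probe set was 0.17 over 5273 genes for osteogenic medium with DMSO against normal medium. The spread of a difference between subunits is wider, and this SD covers the probes and not the cultures.

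**Figure D3:**
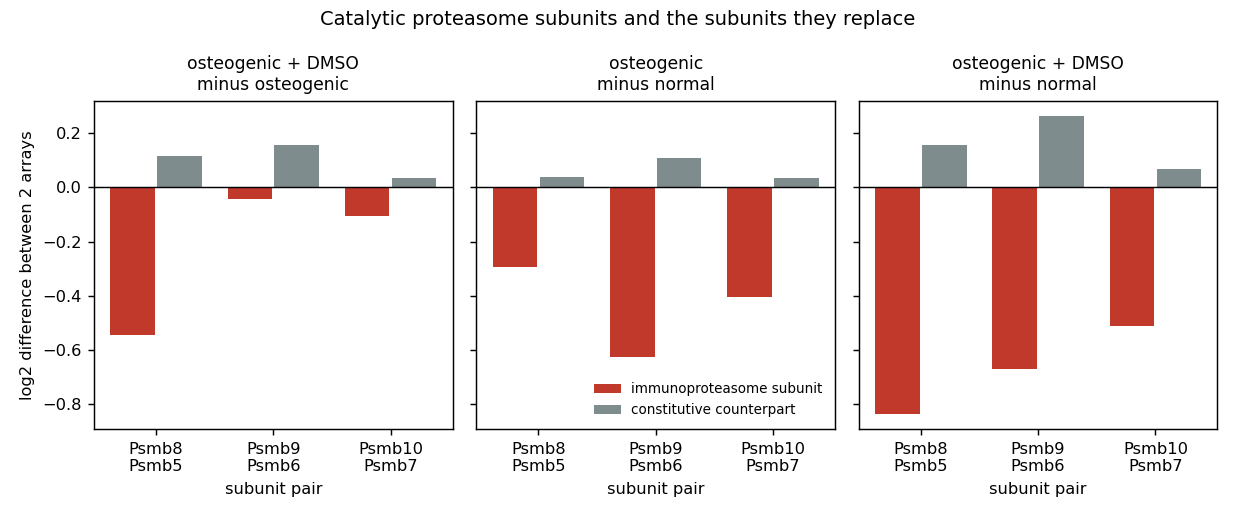
Log2 differences (vertical axis) of the inducible catalytic subunits Psmb8, Psmb9 and Psmb10 (red) and of the constitutive subunits Psmb5, Psmb6 and Psmb7 that they replace (grey), for osteogenic medium with DMSO minus osteogenic, osteogenic minus normal, and osteogenic medium with DMSO minus normal. All red bars lie below 0 and all grey bars above it, and there are no error bars because each bar is a difference of 2 arrays.

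Genes of peptide loading and MHC class I were bright and mostly lower. Tapbp, or tapasin, which holds empty class I molecules near the peptide transporter, stood at 9.24 with DMSO, 9.56 in osteogenic medium and 10.07 in normal medium. It was 1.42-fold lower in osteogenic than in normal medium and 1.24-fold lower with DMSO than without, and the 1.77-fold over both steps was shared by a second probe set (-0.70 against -0.82 on the log2 scale). Tap2, a subunit of that transporter, was at 7.01, 7.29 and 7.69 in the same order, 1.60-fold lower over both steps.

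Tap1, the other subunit of the transporter, went its own way. Its brightest probe set stood at 6.67 in osteogenic medium with DMSO, 6.71 in osteogenic medium and 6.47 in normal medium, so it was 1.18-fold higher in osteogenic than in normal medium. Psmb9, on the other side of the shared stretch shown above, was 1.54-fold lower there. A second Tap1 probe set above the floor had the same value on all 3 arrays (3.66), so the higher level rests on 1 probe set.

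The class I heavy chain genes H2-K1 and H2-D1 were lower with DMSO in particular. H2-K1 stood at 7.78 with DMSO, 8.27 in osteogenic medium and 8.46 in normal medium, and H2-D1 at 8.12, 8.68 and 8.85. The log2 differences with DMSO were -0.48 for H2-K1 and -0.56 for H2-D1, against -0.20 and -0.17 between osteogenic and normal medium. Both values come from probe sets marked as able to match several sequences, and class I genes are near-identical, so the 2 genes cannot be separated with confidence. The 3 H2-K1 probe sets above the floor ranged from -0.52 to -0.44 with DMSO. Of 5 for H2-D1, 4 were lower with DMSO, down to -0.78, and 1 was equal. Without the ambiguous probe sets H2-D1 was at 4.63, 5.41 and 4.87 in osteogenic medium with DMSO, osteogenic and normal medium, which is 0.54 higher in osteogenic than in normal medium.

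B2m, the light chain of every class I molecule, was the brightest of this group, at 10.84 with DMSO, 10.98 in osteogenic medium and 11.30 in normal medium. The log2 difference between osteogenic and normal medium, -0.3216, lay just short of the lowest counting line of 0.3219, while that of Psme1, -0.3294, lay just past it. With DMSO the difference was -0.13. Its second probe set gave -0.22 and -0.087.

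**Figure D4:**
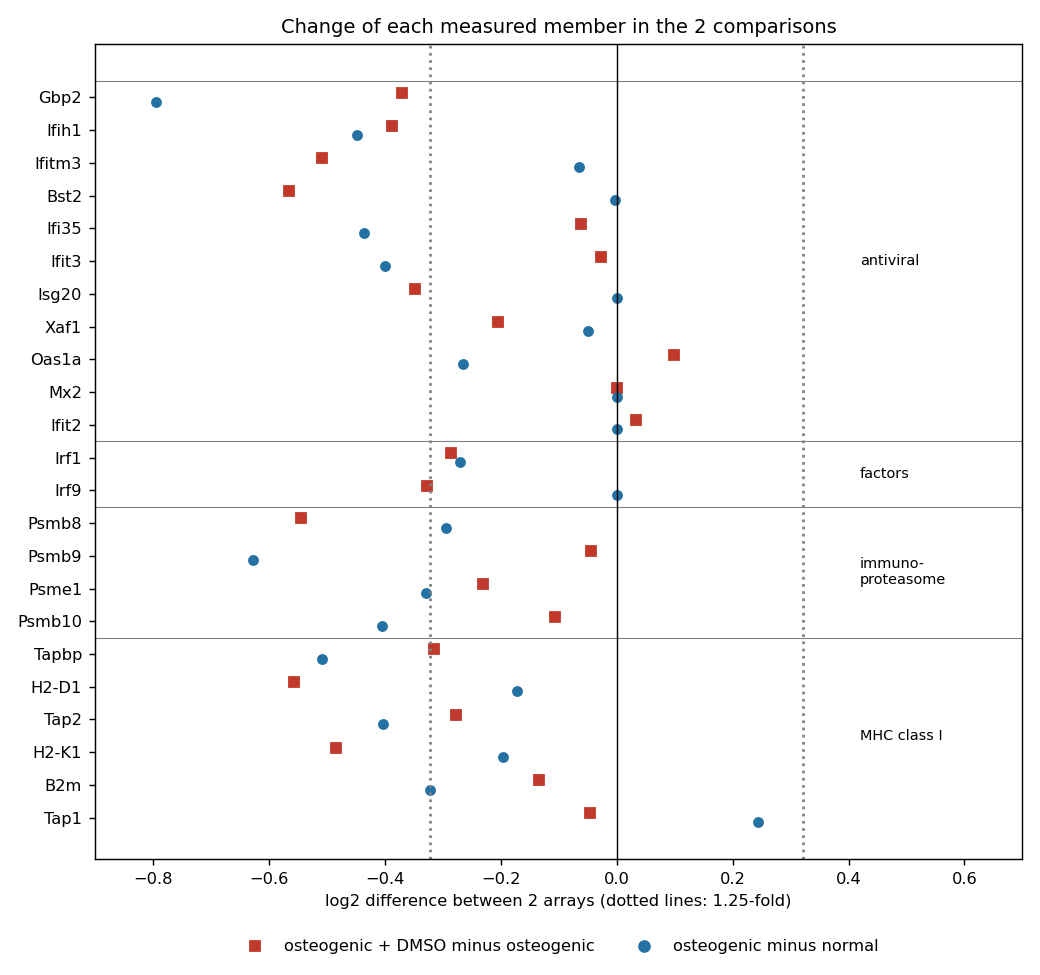
Log2 difference (horizontal axis) of each measured member, with osteogenic medium with DMSO minus osteogenic medium as red squares and osteogenic minus normal medium as blue circles, grouped by role. Dotted lines mark 0.32 in either direction. Bst2, Ifitm3, H2-K1 and H2-D1 have the lower point in the DMSO comparison, and Gbp2, Psmb9, Ifi35 and Tapbp in the comparison of media.

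Upstream of these genes, Ifna1 was the only interferon gene that was measured, at values near the floor. Of 10 listed ligand genes 6 were probed, and Ifnb1, Ifng, Ifna2, Ifna4 and Ifna5 were under the floor on all arrays. Ifna1 was at 3.87, 3.87 and 3.53 in osteogenic medium with DMSO, osteogenic and normal medium. The last lay under the floor, so Ifna1 was at least 1.26-fold higher in either osteogenic medium. All 8 probed receptor and kinase genes were measured, and their medians were 0.00 with DMSO and -0.08 between osteogenic and normal medium. Ifnar1 was at 6.72, 6.61 and 6.72, and Ifnar2 at 8.32, 8.32 and 8.39. Ifngr1 was higher in osteogenic than in normal medium by 0.26, and Ifngr2 was lower by -0.28. Il10rb and Tyk2 differed by -0.095 and 0.089 between osteogenic and normal medium.

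Jak1, the kinase shared by both interferon receptors, had the largest difference of that group. It stood at 8.15 in both osteogenic media and 8.63 in normal medium, and its 3 probe sets ranged from -0.83 to -0.37 between osteogenic and normal medium. Jak2, which acts with Jak1 at the interferon gamma receptor, was at 7.12 with DMSO, 6.91 in osteogenic medium and 6.87 in normal medium. Nlrc5 and Ciita, the activators of class I and class II transcription, were under the floor on all arrays.

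In the list of other interferon-induced genes, 34 were measured, and most were lower in each step. With DMSO 24 were lower, 8 equal and 2 higher, and 12 were lower by at least 0.32, where of all measured genes 30.2% were lower, 40.5% higher and 5.41% lower by that much. Between osteogenic and normal medium 21 were lower, 5 equal and 8 higher, and 5 were lower by at least 0.32, where of all measured genes 38.5% were lower, 36.3% higher and 5.91% lower by that much. Their medians were -0.13 and -0.10. Among the 4 largest differences with DMSO, Rtp4, a receptor transporter protein, was at 3.97 with DMSO and 4.86 without, and Ifitm1, a neighbour of Ifitm3 in its family, at 8.94 and 9.55. Lgals3bp, a secreted glycoprotein, was 1.59-fold lower with DMSO, but 1.13-fold higher in osteogenic than in normal medium. Between osteogenic and normal medium the largest were Gbp6 (-0.61), Gbp7 (-0.53) and Herc6 (-0.51), a ligase that attaches Isg15 in mice. The Herc6 probe sets above the floor ranged from -0.51 to 0.00 there. Gbp6 was under the floor with DMSO, at least 2.53-fold lower than in normal medium.

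In the list of signalling genes, 15 were measured, with medians of -0.08 with DMSO and -0.05 between osteogenic and normal medium. Nmi, the partner of Ifi35, was at 6.67 with DMSO, 6.81 in osteogenic medium and 7.42 in normal medium, a difference of -0.61 between osteogenic and normal medium. Socs3, a feedback inhibitor of cytokine receptors, was at 7.39, 8.16 and 8.28 in the same order, 1.71-fold lower with DMSO, and its 3 probe sets ranged from -0.80 to -0.68. Socs1, the feedback inhibitor of interferon signalling, was higher by 0.52 in osteogenic than in normal medium. Stat3 was higher by 0.17 there, and Cgas, a sensor of cytosolic DNA, by 0.26 with DMSO.

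Of the 17 measured genes in the list of other antigen presentation genes, 9 were lower (52.9%) and 6 higher (35.3%) in each step. Of all measured genes, 30.2% were lower and 40.5% higher with DMSO, and 38.5% were lower and 36.3% higher between osteogenic and normal medium. With DMSO its median was -0.02, and between osteogenic and normal medium -0.08. Ctsl, a lysosomal protease, was at 9.82 with DMSO, 10.28 in osteogenic medium and 10.72 in normal medium, 1.87-fold lower over both steps. The proteasome genes Psma7 and Psme3 were both higher with DMSO by 0.21.

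**Figure D5:**
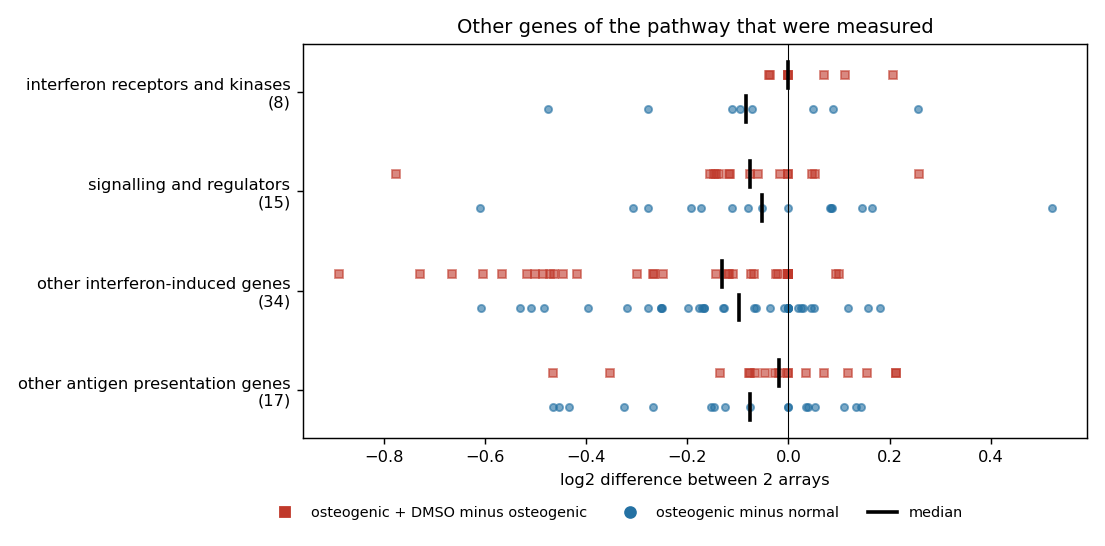
Log2 difference (horizontal axis) of the measured genes of 4 other lists of the pathway, with the number of genes in parentheses, for osteogenic medium with DMSO minus osteogenic medium (red squares) and osteogenic minus normal medium (blue circles). Black bars are medians. The list of 34 other interferon-induced genes has medians of -0.13 and -0.10, and that of the 8 receptor and kinase genes 0.00 and -0.08.

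A few markers of blood cells were lower in the same steps as the members, at low values. Lyz2, a lysozyme gene, was at 5.40 with DMSO, 5.57 in osteogenic medium and 5.96 in normal medium, and Laptm5 at 4.15, 4.36 and 4.75. The Laptm5 probe sets above the floor did not all share this, from -0.21 to 0.027 with DMSO and -0.39 to 0.00 between osteogenic and normal medium. The log2 of the summed signal of the 15 probed markers was 7.38, 7.46 and 7.64 in the same order. Csf1r was at 4.41, 4.41 and 4.66, with probe sets from -0.25 to 0.00 between osteogenic and normal medium. Cd14 was at 4.54, 4.58 and 4.54. The part of blood cell markers in the differences of the members was not tested. Of the 7 osteoblast markers, 5 were higher with DMSO than without, against 40.5% of all measured genes. Between osteogenic and normal medium 6 were higher, against 36.3%. Alpl was at 9.02 with DMSO, 8.31 in osteogenic medium and 6.61 in normal medium, and Sp7 at 7.72, 7.30 and 6.42. Ibsp was higher by 0.38 with DMSO and by 2.18 between osteogenic and normal medium. Col1a1, Col1a2 and Sparc differed by at most 0.18 in either step. Postn was lower in both, by -0.42 with DMSO and -0.17 between osteogenic and normal medium.

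The hybridisation spikes, added to each sample in known amounts, were higher in osteogenic than in normal medium by a median of 0.10 over 18 probe sets and lower with DMSO by a median of -0.03. Probe sets of 1 gene had an SD of 0.11 with DMSO and 0.14 between osteogenic and normal medium. No difference can be set against the spread between cultures. Of the 7 members with more than 1 probe set above the floor, Gbp2, Ifi35, Tapbp, H2-K1 and B2m had all of them lower in both steps. All H2-K1 probe sets may match several sequences. With DMSO, Ifi35 (-0.064 to -0.036) and the second B2m probe set (-0.087) were within the SD. The share of all genes with such agreement was not counted.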

How the data were processed

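Total RNA of 3 cultures was labelled with biotin by a 3' IVT kit and hybridised to Affymetrix mouse arrays, per the labels. The authors deposited 1 value for each of 45101 probe sets and array, on a log2 scale as read from the range. How they were summarised and normalized is not given in the sources used here, and depth does not apply to arrays. Leaving out array controls, 45037 probe sets remained, of which 34945 had 1 gene symbol in the platform annotation of 2016, 932 had several and 9160 were unnamed here, and 37.4% had exactly equal values on all 3 arrays, which draws medians towards 0. All 33 probed members matched the GRCm38.p6 gene table by gene number.

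Each gene took its probe set with the highest mean. Values under the floor, the 50th percentile over all arrays, were raised to it, and differences were subtracted. Counts used log2 differences of 0.32 and folds of 1.5 and 2. The members and lists were chosen with earlier results of these data known. All members are accounted for. Those past 1.5-fold and the 2 brightest of each role are given in full, and of the other genes those with the largest differences, the ligands, the receptors and the kinases. Python 3.11.15, numpy 2.4.6, pandas 2.3.3 and matplotlib 3.10.9 were used, and the computation was tested on simulated data. Alternatives were the probe set, the normalization, the floor, equal values and the fold.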

Additional observations from a re-analysis of the deposited data

How the results depend on the processing

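The members' direction held under all the alternatives tried. These were the mean of all probe sets, the second brightest probe set, quantile normalization, median centring, no floor and floors at the 40th and 60th percentile. Another left out members with a difference of 0. The last, added after the data were seen, left out probe sets with names ending in _x_at, called ambiguous here. Those ending in _s_at stayed. Ifi35 thus kept its brightest probe set, at -0.44 between osteogenic and normal medium, while another of its probe sets gave -0.16. Of 492 single values recomputed, 475 moved by less than the SD between probe sets, 17 moved more and 0 of those past 0.32 changed sign. Bst2 (0.0037 with quantile normalization, 0.0018 with median centring) and H2-D1, both under that line between osteogenic and normal medium, did change sign. Many of the 475 could not move, since a floor leaves brighter values as they are and many members have only 1 probe set. With the mean of all probe sets 8 of 66 values moved more than the SD. With the second brightest probe set 4 of 21 did, and only 7 members remained. Of these, 6 were lower in each comparison. By at least 0.32, 2 were lower in osteogenic against normal medium, where 7.32% of all genes measured this way were. With DMSO within osteogenic medium 3 were, against 4.89%. In osteogenic medium with DMSO against normal medium 5 were, against 10.87%. At 1.5-fold the counts of lower members were 2, 0 and 8 in the same order, and at 2-fold 0, 0 and 1. With no floor, the median with DMSO was -0.13. H2-D1 between osteogenic and normal medium was at -0.17 with its brightest probe set, 0.02 with the mean of all and 0.54 without ambiguous ones, and Psmb8 with DMSO moved to -0.27 when a dim second probe set was averaged in. No paired analysis was possible because each medium has 1 array. Genes near the floor cannot show a decrease.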
